A study of Mus musculus with 2 samples.

Results

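The Dlk1-Dio3 locus on mouse chromosome 12 is an imprinted domain: which copy of a gene is read depends on the parent it came from. Its members here are 7 genes, Begain, Dlk1, Meg3, Rtl1, Rian, Mirg and Dio3, taken from the gene tables by Ensembl identifier out of 43346 Ensembl genes. They were chosen by name and position, not by a measured value, though with earlier results of these data known. Total RNA-seq was read from 2 libraries, each made from the 2 adrenals of 1 pup of strain B6NCrl on postnatal day 0. Both pups came from pregnant animal 1, form 1 group, and the labels list no treatment; sex was not collected. The libraries started from 10 ng of RNA with a size range above 200 (no unit given), with spike-ins added. Since 1 library stands for each pup, no difference between them could be checked against replicates, and the intervals given for such differences cover counting error only.

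In textbook accounts the protein-coding genes Dlk1, Rtl1 and Dio3 are read from the paternal chromosome. The long noncoding RNAs Meg3, Rian and Mirg are read from the maternal chromosome, along with the microRNAs and small nucleolar RNAs (snoRNAs) that lie in or between them. A methylated region between Dlk1 and Meg3 sets this pattern, and Meg3 and Dlk1 are known as abundant transcripts of embryonic endocrine and mesenchymal tissue. Begain lies at the edge of the domain. In rodent adrenals, Dlk1 protein has been described in the capsule and outer cortex. The mice are of 1 inbred strain and the tables hold no allele, so nothing below measures which parental copy was read.

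On the mm10 build, Begain (ENSMUSG00000040867.11) spans chr12:109032187-109068217 on the minus strand. Dlk1 (ENSMUSG00000040856.13) spans chr12:109452823-109463336 and Meg3 (ENSMUSG00000021268.13) spans chr12:109541001-109571726, both on the plus strand. Rtl1 (ENSMUSG00000085925.2) spans chr12:109589193-109600330 on the minus strand. Rian (ENSMUSG00000097451.5) spans chr12:109603940-109661716, Mirg (ENSMUSG00000097391.4) spans chr12:109729764-109749460 and Dio3 (ENSMUSG00000075707.5) spans chr12:110279068-110281097, all on the plus strand. The gaps between neighbours were uneven, 77664 bases from Dlk1 to Meg3 against 529607 bases from Mirg to Dio3.

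The libraries held 41504343 estimated counts on Ensembl genes in pup 1 and 40799478 in pup 2. The 7 members took 0.143% and 0.150% of them. The defining genes of the labelled tissue were present: all 7 markers of steroid-making cortex and all 7 of chromaffin cells had a TPM (the deposited level corrected for length and library total) of at least 1 in both pups. Markers of other cells were also present. The summed TPM was 2328.66 and 1929.49 for 8 capsule and stroma genes, 1057.02 and 330.71 for 4 neuron genes, 2747.86 and 2116.09 for 5 liver genes, and 57.27 and 240.94 for 6 skeletal muscle genes, in pup 1 and pup 2. Cortex markers summed to 6435.32 and 17156.06 and chromaffin markers to 1487.0 and 3514.78.

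Dlk1 and Meg3 were the 2 most abundant members, so their promoter sequences are shown first. RefSeq gives Meg3 2 starts. The 250 bases before the first (chr12:109540746-109540995, plus strand, GRCm38.p6, the same assembly as mm10) hold 3 of 4 motifs searched on both strands, shown in capitals. The 250 bases before the RefSeq start of Dlk1 (chr12:109452573-109452822, plus strand) hold none of them and are shown for comparison. The window before the second Meg3 start, chr12:109545148-109545397, also holds none of the 4 motifs and 0 CpG pairs, and is not shown.
Meg3: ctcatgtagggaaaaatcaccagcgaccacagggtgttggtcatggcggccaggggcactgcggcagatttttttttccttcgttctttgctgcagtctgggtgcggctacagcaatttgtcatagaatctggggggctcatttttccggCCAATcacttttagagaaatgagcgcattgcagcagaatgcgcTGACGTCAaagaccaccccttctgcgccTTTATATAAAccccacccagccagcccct
Dlk1: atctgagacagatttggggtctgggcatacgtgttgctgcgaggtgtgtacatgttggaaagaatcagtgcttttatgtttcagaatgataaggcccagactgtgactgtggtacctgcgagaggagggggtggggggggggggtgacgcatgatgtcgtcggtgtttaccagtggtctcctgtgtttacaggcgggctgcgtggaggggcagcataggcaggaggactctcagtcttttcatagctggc

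The motifs were the TATA box (TATAAA), the CCAAT box (CCAAT), the cAMP response element (TGACGTCA) and the GC box (GGGCGG), with their reverse complements. Before the first Meg3 start the TATA box was found on both strands in overlapping letters, first base 25 and 29 bases before the start. The cAMP response element lay 57 bases before it and the CCAAT box 100 bases before it. Of 32817 RefSeq promoter windows of the same length, 12.4% held a TATA box, 33.8% a CCAAT box, 1.55% a cAMP response element and 32.7% a GC box. That window of Meg3 had 10 CpG pairs and the window of Dlk1 8, against a median of 6. The window of Dlk1 precedes the outermost annotated start; the transcript model to which most Dlk1 reads were assigned starts further in, at 109453455. A match describes letters and not bound protein.

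Dlk1 encodes a membrane-bound relative of the Notch ligands, which a protease can release from the cell surface. Its level was 485.54 TPM in pup 1 against 464.53 TPM in pup 2 (475 ± 14.9 TPM, SD, n = 2). These came from 27960 and 21782 estimated counts. Dlk1 stood at rank 276 of 42425 nuclear genes by mean TPM, so it was among the most abundant messages of these libraries, which also held markers of other tissues. The quantifier's TPM intervals were 469 to 490 in pup 1 and 446 to 469 in pup 2 and just overlapped. By counts scaled for composition with TMM, Dlk1 was 1.36-fold lower in pup 2, a log2 ratio of -0.45 (95% counting interval -0.47 to -0.42).

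Meg3 is the first of the long noncoding RNAs read from the maternal chromosome. Its level was 353.68 TPM in pup 1 against 611.70 TPM in pup 2 (483 ± 182 TPM, SD, n = 2), from 23186.6 and 31804.27 estimated counts. Meg3 ranked 271 of all nuclear genes and 6 of 6853 long noncoding genes. The intervals, 344 to 356 and 593 to 610 TPM, did not overlap, and the deposited TPM of pup 2 lay just above its own interval. By scaled counts Meg3 was 1.29-fold higher in pup 2 (log2 ratio 0.37, interval 0.35 to 0.40), the opposite direction to Dlk1.

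Dlk1 and Meg3 therefore had nearly equal mean levels, but their order changed between the pups. Within pup 1 the log2 ratio of Meg3 over Dlk1 TPM was -0.46 and within pup 2 it was 0.40 (-0.03 ± 0.60, SD, n = 2). Meg3 stood at 0.728 of Dlk1 in pup 1 and at 1.32 times Dlk1 in pup 2. Each ratio is taken within a library and needs no scaling between libraries.

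Rian, the host of a snoRNA cluster, stood at 111.05 TPM in pup 1 and at 116.25 TPM in pup 2 (114 ± 3.68 TPM, SD, n = 2), from 7056.95 and 6436 counts. It ranked 19 among long noncoding genes. The TPM intervals of 107 to 115 and 112 to 120 overlapped. Scaled counts were slightly lower in pup 2, with a log2 ratio of -0.22 (interval -0.27 to -0.17), while TPM was slightly higher, so the direction for Rian depends on the unit.

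Mirg, which spans part of the large microRNA cluster, had 8.12 and 8.23 TPM (8.18 ± 0.08 TPM, SD, n = 2) from 294 and 335 counts. Its TPM intervals, 7.26 to 9.45 and 7.5 to 9.76, overlapped, and its log2 ratio of 0.10 had a counting interval of -0.13 to 0.33 that spans no difference. Among these members, the level was lower at each step from Meg3 to Rian to Mirg in both pups. Gm37899 and B830012L14Rik, noncoding genes between Rian and Mirg described below, were lower than Mirg, so the level did not fall at every gene along the chromosome. In pup 1 the log2 ratio of Rian over Meg3 TPM was -1.67, and in pup 2 -2.40. For Mirg over Rian it was -3.77 and -3.82, so this pair kept a close ratio in TPM. By scaled counts, pup 2 over pup 1, Mirg had a log2 ratio of 0.10 and Rian -0.22, so this closeness depends on the unit.

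Begain encodes a protein bound to guanylate kinase proteins of synapses. It had 5.66 and 5.76 TPM (5.71 ± 0.07 TPM, SD, n = 2), from 518.08 and 390.24 counts. The TPM intervals, 4.98 to 6.18 and 4.95 to 6.40, overlapped. By scaled counts Begain was 1.41-fold lower in pup 2 (log2 ratio -0.49, interval -0.69 to -0.30), and TPM showed no such difference.

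Rtl1, a gag-pol-like protein derived from a retrotransposon and known for its role in placental vessels, was near the threshold. It stood at 0.62 TPM in pup 1 and at 1.24 TPM in pup 2 (0.93 ± 0.44 TPM, SD, n = 2) from 157 and 255.24 counts. The TPM intervals of 0.524 to 0.717 and 1.08 to 1.38 did not overlap. Scaled counts were 1.53-fold higher in pup 2 (log2 ratio 0.61, interval 0.32 to 0.91).

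Dio3 encodes the deiodinase that inactivates thyroid hormone. It was the least abundant member, with 6 counts in pup 1 and 34 in pup 2, equal to 0.08 and 0.54 TPM (0.31 ± 0.33 TPM, SD, n = 2). Its scaled-count ratio was 5.34 in favour of pup 2 (log2 ratio 2.33, interval 1.15 to 3.96), which rests on those 6 counts. The TPM intervals, 0.0406 to 0.196 and 0.406 to 0.818, did not overlap.

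**Figure D1:**
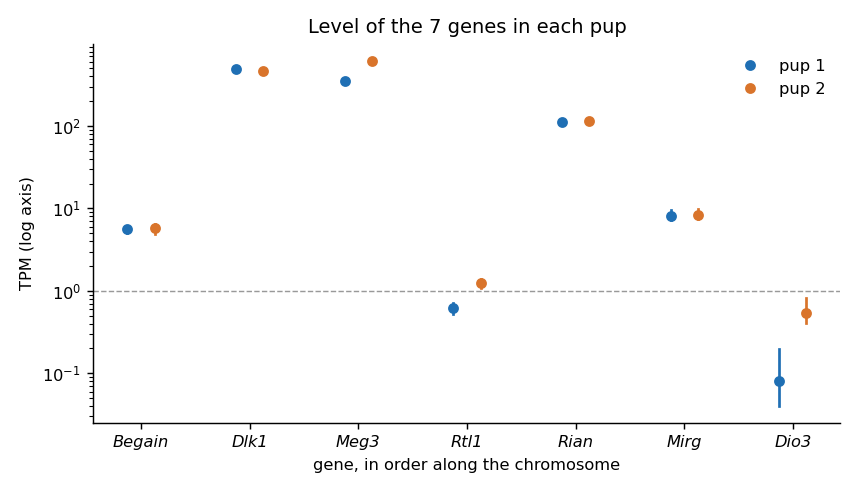
Level of each member in each pup. Points are deposited TPM on a log axis (blue, pup 1; orange, pup 2), vertical lines are the quantifier's intervals, and the dashed line marks 1 TPM. Dlk1 and Meg3 lie between 354 and 612 TPM, and Rtl1 and Dio3 are the lowest.

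Of the 7 members, 5 had a TPM of at least 1 in both pups, against 32.9% of all Ensembl genes. All 7 passed a mean count of 10. On TMM-scaled counts 3 members were higher in pup 1 and 4 in pup 2, against backgrounds of 49.9% and 50.1% of 18670 genes with that mean count. The median log2 ratio of the members was 0.10 and that of all such genes 0.0019. Dio3 alone was over 2-fold apart, and 15.8% of all genes were. None of the members was over 2-fold higher in pup 1 (9.74% of all genes), and Dio3 was so in pup 2 (6.05% of all genes). The counting interval excluded 0 for 6 members, and did so for 69.6% of all genes. The TPM intervals of 4 members overlapped between pups, a count without a background because such overlap was not computed over all genes. The split by direction and the count past 2-fold were thus near those of all genes.

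The split of all genes depends on the scaling: of 18588 genes whose mean count reached 10 and whose TPM was above 0 in both pups, 5086 were higher in pup 1 and 13415 in pup 2 by deposited TPM, and 152 and 18436 with spike-in counts as the scale. Over all genes tested, the log2 ratio of TPM exceeded that of scaled counts by 0.39 (median). Begain and Rian, lower in pup 2 by counts, had TPM log2 ratios of 0.025 and 0.066. Dlk1 was the only member of the 7 that was higher in pup 1 by TPM, with a log2 ratio of -0.064.

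The pups also differed in markers of cell types. Against the median of 0.0019 over all genes, the median log2 ratio was 1.18 for the 7 cortex markers (7 higher in pup 2) and 0.53 for the 7 chromaffin markers (5 higher in pup 2). It was -0.75 for the 8 capsule and stroma markers (8 higher in pup 1) and -2.02 for the 4 neuron markers (4 higher in pup 1). The 5 liver markers, all higher in pup 1, had a median of -0.82 and the 6 muscle markers, all higher in pup 2, of 2.29 (Myh1 had 0 counts in pup 1). By deposited TPM 7 of the 8 capsule and stroma markers were higher in pup 1, and the cortex, neuron and liver markers kept their counts. Scaled to spike-ins, which puts the median of all genes at 2.56, every marker present in both pups was higher in pup 2. Their part in the differences of the members was not tested. In bulk tissue, fewer cells of a type and less RNA per cell cannot be told apart.

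The 3 most abundant genes of each marker list had the values that follow, which are not the farthest from 0 in every list. Hsd3b1, Cyp21a1 and Cyp11a1 (steroid synthesis) had log2 ratios of 0.63, 1.30 and 1.27. Chga, Chgb and Th (secretory granules and catecholamine synthesis) had 1.06, 1.19 and 0.53. The matrix genes Col3a1, Col1a1 and Dcn had -0.36, -0.39 and -0.71. The neuronal genes Stmn2, Gap43 and Tubb3 had -2.02, -1.97 and -2.02. Trf, Apoa1 and Ahsg, secreted by liver, had -0.61, -0.82 and -0.68, and Acta1, Tnnt3 and Ckm of muscle had 1.56, 2.01 and 1.43.

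The interval from Begain to Dio3 covers 1248911 bases and 122 annotated genes, of which 99 had a row in the tables. Of these 99, 77 were too short to be given a level, as explained below, and 22 could have one. Among the 22, 7 reached 1 TPM in both pups: the 5 members and 2 noncoding genes between Rian and Mirg. Over all Ensembl genes the share was 32.9%, which also counts genes too short to measure. Gm37899, a gene model whose existence awaits experiment, had 1.42 and 3.01 TPM from 495 and 851 counts (log2 ratio 0.70, interval 0.53 to 0.86). B830012L14Rik, a long intergenic noncoding RNA, had 1.15 and 1.75 TPM from 205 and 252 counts (log2 ratio 0.21, interval -0.06 to 0.49). Both were higher in pup 2 and only the interval of Gm37899 excluded 0. The other 2 noncoding genes with counts were lower: Gm26945 had 10 and 25 counts and Gm26906, antisense to the end of Meg3, 5.22 and 8.63, named after their values were seen. Reads of Gm26906 and Meg3 cannot be told apart unless strand was used, and no source used here says whether it was.

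**Figure D2:**
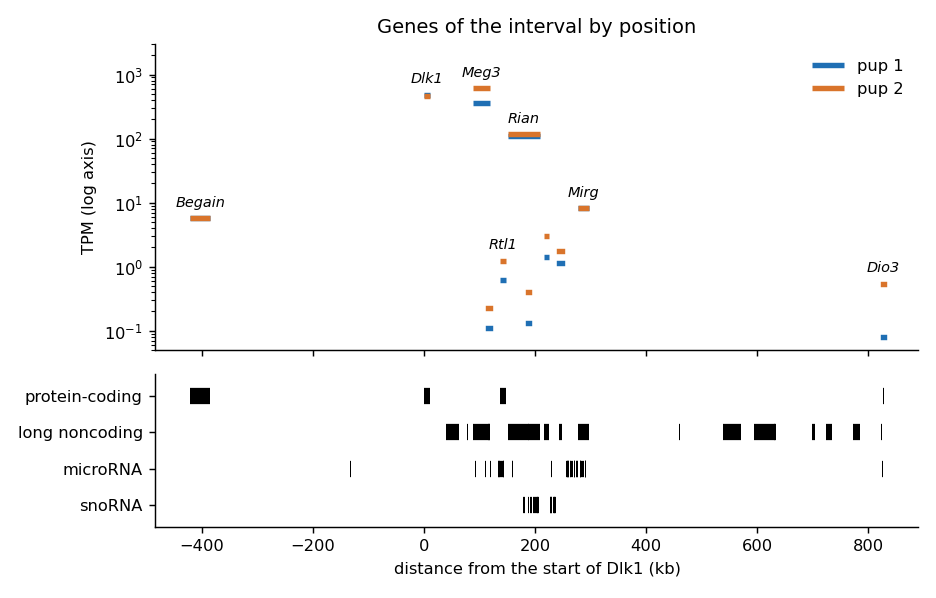
Genes of the interval by distance from the start of Dlk1 in kb. The upper panel gives TPM on a log axis per pup for genes with a level above 0 in both (orange bars hide blue ones at equal level) and the lower panel the annotated genes by class, with short genes widened to be visible and pseudogenes left out. The highest levels lie between Dlk1 and Mirg, and the microRNA and snoRNA genes cluster there too. Annotated genes between Begain and Dlk1, and between Mirg and Dio3, had no row or were too short to measure. Expression in those stretches is therefore unknown.

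The microRNA and snoRNA genes could not be measured. The effective length, the part of a transcript where a fragment can start, was the length minus 99 bases for every transcript, and was 0 for features of up to 99 bases. Of 61 microRNA genes with a row, 51 had an effective length of 0, as had all 23 snoRNA genes. The microRNA genes summed to 0 counts in pup 1 and 1.76 in pup 2. The libraries also held RNA above a size limit, so these values say nothing on mature microRNAs.

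Rtl1 lies across from 6 microRNA genes that are read from the other strand within its exon. Their sequences are therefore complementary to the Rtl1 message. Reads of their precursor and of Rtl1 cover the same bases and cannot be told apart without strand. Their 11 mature sequences follow, from RefSeq (GRCm38.p6), with the seed, bases 2 to 8, in capitals.
mmu-miR-431-5p: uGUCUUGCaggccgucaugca
mmu-miR-431-3p: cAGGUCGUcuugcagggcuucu
mmu-miR-433-5p: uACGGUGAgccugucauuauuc
mmu-miR-433-3p: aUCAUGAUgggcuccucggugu
mmu-miR-127-5p: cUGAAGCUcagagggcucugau
mmu-miR-127-3p: uCGGAUCCgucugagcuuggcu
mmu-miR-434-5p: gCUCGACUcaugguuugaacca
mmu-miR-434-3p: uUUGAACCaucacucgacuccu
mmu-miR-432: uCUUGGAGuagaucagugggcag
mmu-miR-136-5p: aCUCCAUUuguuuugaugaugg
mmu-miR-136-3p: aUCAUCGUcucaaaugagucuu

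No seed in that group was shared with another mature microRNA of the interval. Over the whole interval RefSeq lists 58 hairpins with 113 mature names, and 9 seeds were each shared by 2 of them. The pairs around miR-379, in the large cluster, show how such relatives look, with the shared seed in capitals.
mmu-miR-379-5p: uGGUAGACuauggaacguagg
mmu-miR-1193-5p: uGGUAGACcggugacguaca
mmu-miR-379-3p: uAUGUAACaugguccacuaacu
mmu-miR-411-3p: uAUGUAACacgguccacuaacc

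Genes that make and use microRNAs were expressed: all 8 listed had a TPM of at least 1 in both pups. On TMM-scaled counts, 4 had the higher value in pup 1 and 4 in pup 2 (median log2 ratio 0.01), whereas by TPM all 8 had it in pup 2. Tarbp2, a partner of Dicer, had 22.50 and 32.71 TPM, the export factor Xpo5 9.68 and 24.39 TPM, and Drosha, which cuts hairpins from primary transcripts, 11.17 and 13.48 TPM.

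**Figure D3:**
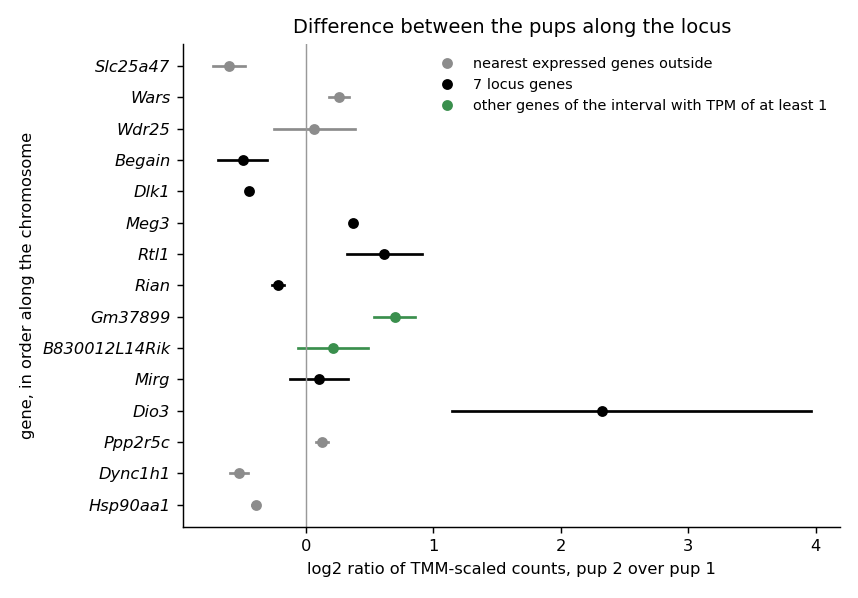
Log2 ratio of TMM-scaled counts, pup 2 over pup 1, for the members (black), the other genes of the interval with at least 1 TPM (green) and the nearest expressed genes outside (grey). Points are ratios and bars 95% counting intervals; Dio3 lies farthest from 0 with the widest interval, and genes on both sides of the interval lie on both sides of 0.

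The nearest expressed genes outside the interval differed between pups by similar amounts. Before Begain, Slc25a47, a mitochondrial carrier, had a log2 ratio of -0.60 (interval -0.73 to -0.48), the tryptophanyl-tRNA synthetase gene Wars 0.26 (interval 0.18 to 0.34) and Wdr25 0.07 (interval -0.25 to 0.38). After Dio3, the phosphatase subunit Ppp2r5c had 0.12 (interval 0.08 to 0.17), the dynein heavy chain Dync1h1 -0.53 (interval -0.60 to -0.45) and the chaperone Hsp90aa1 -0.39 (interval -0.42 to -0.36). Except for Dio3 and Rtl1, the absolute ratios of members were no larger than that of Slc25a47.

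The 7 genes have 58 annotated transcript models, of which 8 had 0 counts in both pups. The share of a model depends on how the quantifier divided reads between overlapping models. Dlk1 has 10, and Dlk1-205, a full-length model of 385 codons, led in both pups with 73.84% and 71.07% of Dlk1 TPM (72.5% ± 1.96, SD, n = 2). Dlk1-203 followed with 11.02% and 13.30%, and the partial model Dlk1-209 with 10.94% and 9.42%.

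Within the last exon of Dlk1-205, 6 other models remove an internal stretch as an intron. The stretches are 150 to 285 bases long and all are multiples of 3. All 6 share a common segment of 150 bases, chr12:109459893-109460042. The stretch absent from Dlk1-203 is 219 bases of coding sequence, chr12:109459893-109460111 on the plus strand (GRCm38), and it begins with GT and ends with AG. It is shown because it is the coding sequence that Dlk1-205 has and Dlk1-203 lacks (the 2 models also differ in where they start and end), with the segment common to all 6 in capitals.
Dlk1 segment: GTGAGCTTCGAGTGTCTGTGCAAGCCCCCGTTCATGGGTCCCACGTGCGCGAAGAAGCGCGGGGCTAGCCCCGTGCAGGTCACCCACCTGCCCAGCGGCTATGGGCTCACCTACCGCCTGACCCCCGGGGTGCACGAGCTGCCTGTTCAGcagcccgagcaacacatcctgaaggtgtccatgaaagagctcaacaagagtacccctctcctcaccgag

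Dlk1 is known to have forms that differ in a region next to the membrane, including the site at which the outer part is released. Models with the stretch removed held 25.2% of Dlk1 TPM in pup 1 and 27.2% in pup 2 (26.2% ± 1.40, SD, n = 2), and those with it held 73.8% and 71.1%. As a share of counts the removed forms made up 16.5% and 19.4%. Without the partial model Dlk1-209 they made up 16.0% and 19.6% of TPM. Uninterrupted models were the larger class in both pups under each of these measures. By scaled counts the removed forms had a log2 ratio of -0.21 (interval -0.27 to -0.15) and the uninterrupted forms -0.50 (interval -0.53 to -0.48). As a class the latter was thus lower in pup 2 by more. The models of the removed class did not all differ alike: Dlk1-209 had -0.66 (interval -0.82 to -0.51), below the uninterrupted forms, and the others lay above them. Here and for the Meg3 models below, such intervals leave out the error of dividing reads between overlapping models. By TPM the removed forms had 122.26 and 126.14, slightly higher in pup 2, and the uninterrupted forms 358.5 and 330.14, so the direction of the removed forms depends on the unit.

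Genes around the function of Dlk1 were mostly expressed. Of 10 (its relative Dlk2, proteases and Notch genes) 9 had a TPM of at least 1 in both pups. On TMM-scaled counts, 4 had the higher value in pup 1 and 6 in pup 2 (median log2 ratio 0.03), and by TPM 1 and 8, with Notch1 equal. Adam10 and Adam17, proteases that release membrane proteins, had 24.75 and 31.65 TPM and 12.99 and 21.96 TPM. Hes1, a target of Notch, had 17.03 and 22.88 TPM. Dlk2, named after its values were seen, was the exception at 0.57 and 0.17 TPM from 31 and 8 counts.

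**Figure D4:**
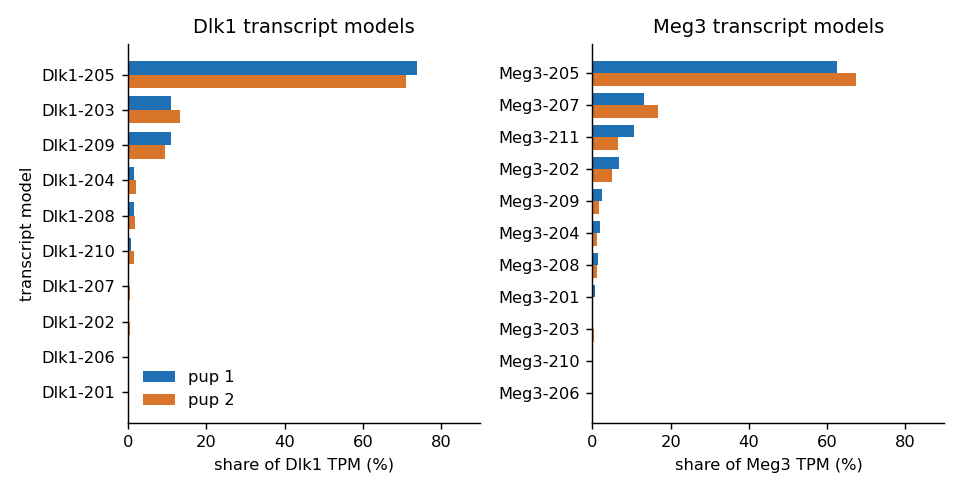
Share of the gene's TPM in each annotated transcript model of Dlk1 (left) and Meg3 (right), in percent, with blue bars for pup 1 and orange bars for pup 2. Dlk1-205 and Meg3-205 lead in both pups.

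Meg3 has 11 models, and Meg3-205, a short model of 3 exons at the start of the gene, led with 62.58% and 67.46% of Meg3 TPM (65.0% ± 3.45, SD, n = 2). Meg3-207, which runs from the same start to the far end in 10 exons, held 13.20% and 16.76%. Grouped after the values were seen, the 3 models that start at the first exon had 16025 counts in pup 1 and 24961 in pup 2, a log2 ratio of 0.55 (interval 0.53 to 0.58). The 8 that start further in had 7161 and 6843 counts, a log2 ratio of -0.15 (interval -0.20 to -0.10), but 83.74 and 96.51 TPM, so their direction depends on the unit. Most of these counts, 5128.27 and 4971.74, went to Meg3-209, a model of 14548 bases with 2.49% and 1.72% of Meg3 TPM. Its log2 ratio was -0.13 (interval -0.19 to -0.07). Within this group Meg3-203, Meg3-208 and Meg3-210 had positive ratios with intervals that include 0, and the others had negative ones. The 3 first-exon models did not all differ alike: Meg3-205 and Meg3-207 had more counts in pup 2, while Meg3-201 had 149.31 counts in pup 1 and 0 in pup 2. As a share of Meg3 TPM the 3 together held 76.3% in pup 1 against 84.2% in pup 2.

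**Figure D5:**
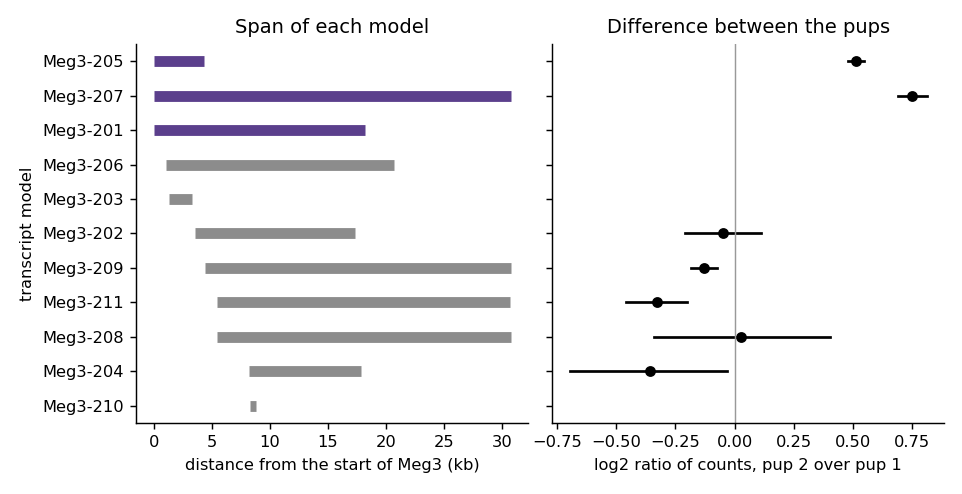
Meg3 transcript models. The left panel gives the span of each model by distance from the Meg3 start in kb (purple, models starting at the first exon; grey, the others), and the right panel the log2 ratio of counts, pup 2 over pup 1, with 95% counting intervals for models with at least 100 counts over both pups and a count above 0 in each. Meg3-205 and Meg3-207 lie to the right of 0.

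Rian and Mirg had no single leading model. In Rian the top model was Rian-213 in pup 1 (38.81%, against 31.23% in pup 2) and Rian-202 in pup 2 (38.26%, against 36.04% in pup 1). In Mirg it was Mirg-207 in pup 1 (40.95%, 31.63% in pup 2) and Mirg-201 in pup 2 (40.96%, 19.22% in pup 1). Mirg-207 rests on 79.79 and 50.73 counts, so these shares are imprecise. Begain-203, a model of 619 codons, held 82.00% and 70.34% of Begain TPM. Rtl1 has 1 model, and for Dio3 all counts went to Dio3-202.

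Across all genes with a symbol, those nearest to Dlk1 in log2(TPM + 1) over both pups were Tuba1b, Col1a1 and the processed pseudogene Gm8186, at distances of 0.06, 0.08 and 0.10. Tuba1b, a tubulin, had 470.74 and 480.04 TPM and Col1a1, a fibrillar collagen, 491.96 and 490.29 TPM. Those nearest to Meg3 were Mif, Atp5g1 and Itm2c, at 0.05, 0.05 and 0.09. Mif, a cytokine, had 352.47 and 632.64 TPM. With 2 libraries, this distance compares 2 levels and nothing more.

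Lists of genes tied to the locus by function held genes on both sides of 0 by TMM-scaled counts. By TPM, whose median over all genes was 0.39, most were higher in pup 2 (14 of 16, 8 of 10 and 8 of 9 for the 3 lists that follow), and all were so when scaled to spike-ins. Of 17 keepers and readers of imprints, 16 had a TPM of at least 1 in both pups; among the 16 with a mean count of at least 10, 6 were higher in pup 1 and 10 were higher in pup 2 (median log2 ratio 0.20). Trim28, a corepressor drawn to imprinted sites, had 69.95 and 104.64 TPM, the DNA methyltransferase Dnmt3a 41.85 and 54.79 TPM and the insulator protein Ctcf 27.94 and 44.39 TPM. Dppa3, named after its values were seen, was at 0.29 and 0.31 TPM. Of 10 relatives of Rtl1, 8 reached 1 TPM in both pups, 6 were higher in pup 1 and 4 were higher in pup 2 (median log2 ratio -0.14). Rtl8a, Rtl8c and Rtl8b had 62.72 and 73.85, 56.55 and 54.45, and 45.62 and 48.01 TPM. The counts of Rtl8a and Rtl8b were not whole, so as near-identical copies their division of reads is uncertain. Those of Rtl8c were whole, 689 and 539.

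Of 11 thyroid hormone genes, 8 reached 1 TPM in both pups; among the 9 with a mean count of at least 10, 4 were higher in pup 1 and 5 were higher in pup 2 (median log2 ratio 0.28). Sephs2, which makes selenophosphate for selenoproteins such as deiodinases, had 43.79 and 93.98 TPM. The receptor Thra had 28.70 and 23.73 TPM and the transporter subunit Slc7a5 11.27 and 17.67 TPM. All 3 deiodinases were low: Dio1 had 9 and 6 counts, Dio2 0 and 6 counts, and Dio3 6 and 34 counts, the first pair named after their values were seen.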

How the data were processed

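Total RNA-seq from the adrenals of 2 newborn pups (1 library each, 1 group) was analysed. The build, mm10, is per the labels, and the annotation, GENCODE M4, per the text file deposited with each library; no source used here names the aligner, the quantifier or the strand setting. The authors deposited expected counts (estimated, not always whole), TPM, FPKM and, per transcript, the percent of a gene's TPM, with posterior means and intervals, per the file headers. The interval bounds of TPM, the SD of counts and the effective lengths are scores written by the authors' quantifier, per the file headers. Counts were not whole for 15.3% and 15.9% of Ensembl gene rows and were rounded for scaling only. Numbered rows and spike-ins (spike-ins took 0.0138% of counts in pup 1 and 0.0025% in pup 2) were left out of library sizes. GENCODE M21, of the same build, supplied symbols, coordinates and types by Ensembl identifier, and 57 of 58 member transcripts had the same length there. The exception was the only Rtl1 model, so the Rtl1 span and exon used above are those of M21 and differ in length from the model quantified.

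Counts were TMM-scaled (edgeR 4.0.16, R 4.3.3) over genes whose mean count reached 10, and log2 ratios of pup 2 to pup 1 were taken after adding 0.5. Intervals are exact binomial 95% and cover counting error only. They treat reads as independent molecules, which reads are not, so they may be too narrow even for that error. No test between pups was run. The procedure was tested on simulated data. DESeq2 size factors, totals, spike-ins, posterior means, deposited TPM and FPKM, a pseudocount of 5 and other thresholds were tried as alternatives. The 3 alternatives for the Dlk1 internal intron were added after seeing the data.

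The members, lists and transcript groups were chosen with earlier results of these data known. Named genes are the members, other interval genes with a TPM of at least 1, the 3 nearest expressed genes on each side, the 3 most abundant of each list, and the 3 genes nearest to Dlk1 and to Meg3. Mature microRNA and promoter sequences are RefSeq's; the Dlk1 segment is from the GENCODE transcript. Protein sequences were not used here.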

Additional observations from a re-analysis of the deposited data

How the results depend on the processing

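Each pup is 1 library, so counting error is the smallest error a ratio between pups can have, and Dio3, with 6 counts in pup 1, is the least precise. No paired analysis was possible because both libraries belong to 1 group. Scaling decided several directions. With 3 members higher in pup 1 under TMM, the count was also 3 with DESeq2 size factors, totals of Ensembl genes, posterior mean counts, a pseudocount of 5 and no count minimum, and 4 with FPKM, but 1 with deposited TPM and 0 with spike-in counts. Under spike-in counts, of which pup 1 held 5717 and pup 2 1022, the log2 ratios reversed for Begain (2.07), Dlk1 (2.12) and Rian (2.35), and that of Meg3 was 2.94. Under deposited TPM they reversed for Begain (0.025) and Rian (0.066). Why spike-in counts differed was not tested. Mirg, whose interval spans 0, was at -0.26 under FPKM.

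The count of members with a TPM of at least 1 was 5 to 6 when either pup was left out, and 5 or 6 under the other thresholds and units. For all interval genes the count was 7 to 9 with a pup left out and 16 with posterior mean TPM; the 9 added genes were small RNA genes with effective lengths of at most 24 and 0 and 1 counts in all. The log2 ratio of Meg3 over Dlk1 was -0.46 to 0.40 with a pup left out, so its sign rests on the pup, and -0.03 under the other units. The leading Dlk1 transcript held 71.1% to 73.8% and the leading Meg3 transcript 62.6% to 67.5% with a pup left out; as shares of counts they held 81.3% and 56.7%.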
